A study of Mus musculus with 4 samples.

Results

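The genes described here are those of 4 families that remodel the extracellular matrix or hold its proteases in check, namely the Adamts, Adamtsl, Mmp and Timp genes. They were chosen by gene symbol alone, from the authors' annotation of a list of PRDM6 ChIP-Seq peaks. Of the 13977 peaks in the list, 91 were assigned to such a gene, and they belonged to 20 of the 5246 genes with a peak. The gene models held 51 genes with a symbol of these families, so 31 of them had no peak.

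The samples were primary outflow tract smooth muscle cells (SMCs), cultured from late-gestation mouse embryos and infected with a lentivirus that expressed FLAG-tagged PRDM6. PRDM6, a PR domain protein with zinc fingers, is selective for SMCs, and the experiment asked where on the genome it sits. The 4 libraries formed 2 groups: PRDM6 ChIP, precipitated with an anti-FLAG antibody, with 2 libraries, and Input, the chromatin of the same infected cells before precipitation, with 2 libraries. Both groups therefore carried the tagged protein, which was overexpressed from the virus, and no library of uninfected cells was part of the comparison. The study speaks of its immunoprecipitations as coming from a common sample in one place and as independent in another, and the labels name no separate cultures. The spread between them may thus be technical. These libraries hold no RNA values, so the labelled cell type was not checked against markers here, and whether a gene near a peak was expressed was not tested.

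Matrix proteases work outside the cell. MMPs are zinc enzymes that cut collagens, gelatin, elastin and many other matrix and surface proteins. ADAMTS proteins are secreted relatives of theirs whose thrombospondin repeats tether them to the matrix, and several of them cut the large proteoglycans versican and aggrecan, which fill the wall of developing vessels and the cushions of the outflow tract. ADAMTS-like proteins share the repeats but have no protease domain and associate with fibrillin microfibrils, and TIMPs block the active site of MMPs and of some ADAMTS enzymes.

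Each peak has a −log10 p-value from each immunoprecipitation against its own input, where a larger value means a taller pile of fragments over background. Since the list tells the immunoprecipitations apart by order alone, they appear here as first-listed and second-listed replicate. A peak also has a global irreproducible discovery rate (IDR), which is estimated from the ranks in both replicates. It is the expected share of irreproducible peaks among those ranked at least as high, not the chance for that peak alone. All positions are in mm10.

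The families with the highest shares of bound genes were Adamts and Adamtsl. Of the 19 Adamts genes, 12 had a peak (63.2%, 95% Wilson interval 41.0% to 80.9%), and they held 60 of the 91 peaks. Of the 5 Adamtsl genes 3 had a peak (60%, 23.1% to 88.2%), with 21 peaks in all. In contrast, 4 of 23 Mmp genes (17.4%, 6.98% to 37.1%) and 1 of 4 Timp genes had a peak, with 8 and 2 peaks. Across the 4 families 39.2% of genes had a peak (27.0% to 52.9%), where the share over all 21728 protein-coding genes was 19.9%. The intervals cover counting error only, and genes are not replicates.

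Long genes collect more peaks, and the bound members were long. Their median length was 81.6 kb, where that of the members without a peak was 17.0 kb. Among members of 100 kb or more, 10 of 13 had a peak (76.9%), and the share over all protein-coding genes of that length was 55.3%. Among shorter members the share was 10 of 38 (26.3%) beside 15.3% for all shorter protein-coding genes. The Mmp genes without a peak had a median length of 12.7 kb. How much of the gap between the Adamts and the Mmp genes went with length was not tested.

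The peaks were unequally spread over the bound genes. Adamts5, a major aggrecanase, had 22 peaks, and 11 genes of the whole list had as many or more. Adamts6 followed with 15, Adamtsl1 with 12, Adamts1 with 8, Adamts9 and Adamtsl3 with 7 each, Mmp16 with 5, and Timp3 and Adamtsl4 with 2 each. The remaining 11 genes, Adamts2, Adamts4, Adamts10, Adamts12, Adamts15, Adamts16, Adamts17, Adamts20, Mmp2, Mmp14 and Mmp28, had 1 each. On average a bound member had 4.55 peaks, where a bound gene of the whole list had 2.66.

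**Figure D1:**
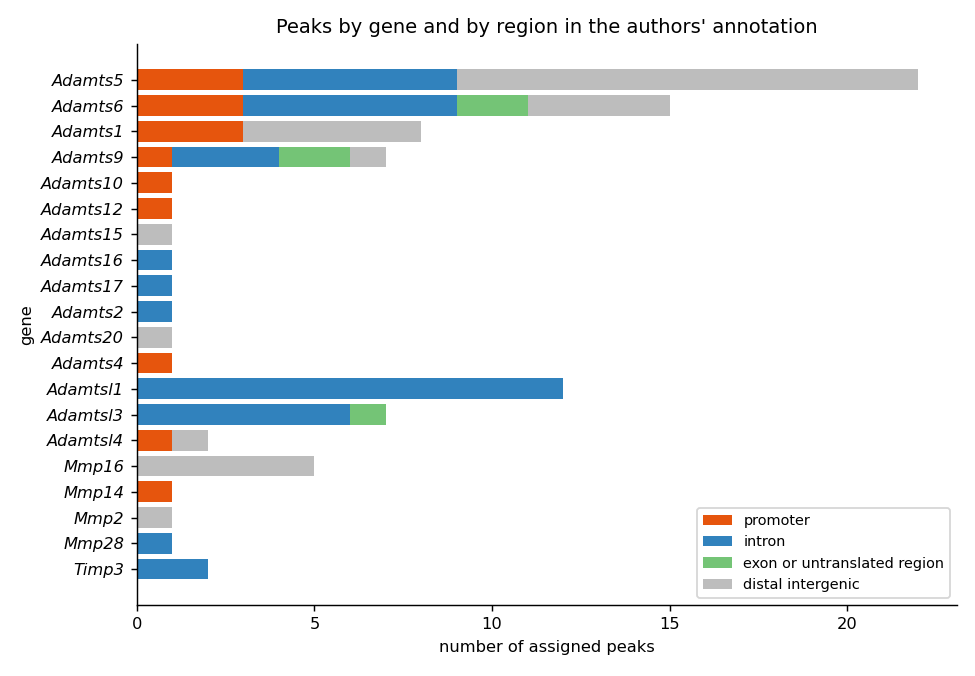
Number of peaks (x axis) assigned to each of the 20 bound genes (y axis), coloured by the region class of the authors' annotation. Adamts5, with 22 peaks, is mostly distal intergenic, the 12 peaks of Adamtsl1 are all intronic, and the 5 peaks of Mmp16 are all distal intergenic.

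At the usual limit on the global IDR, 0.05, 4 of the 91 peaks passed (4.40%, 1.72% to 10.8%), beside 3.33% of all peaks. They were 1 peak of Adamtsl3, 2 of Adamts5 and 1 of Adamts9. Their sequences are shown because they are the most reproducible binding positions of the families. Each run is the summit and 100 bases on either side, on the plus strand of the reference genome (GRCm38.p6, RefSeq), with an AP-1 motif in capitals where the window holds one:
Adamtsl3 chr7:82534289-82534489: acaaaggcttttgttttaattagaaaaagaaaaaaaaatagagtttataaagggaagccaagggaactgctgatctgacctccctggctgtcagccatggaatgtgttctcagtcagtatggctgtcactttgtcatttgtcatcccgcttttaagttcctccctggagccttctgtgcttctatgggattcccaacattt
Adamts5 chr16:85950639-85950839: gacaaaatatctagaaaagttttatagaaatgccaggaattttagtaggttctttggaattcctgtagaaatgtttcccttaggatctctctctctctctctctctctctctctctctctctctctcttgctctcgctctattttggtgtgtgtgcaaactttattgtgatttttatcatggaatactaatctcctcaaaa
Adamts5 chr16:86348035-86348235: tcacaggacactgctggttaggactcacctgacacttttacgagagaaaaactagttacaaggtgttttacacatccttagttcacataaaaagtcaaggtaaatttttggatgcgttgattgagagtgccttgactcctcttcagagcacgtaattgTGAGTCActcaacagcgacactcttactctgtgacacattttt
Adamts9 chr6:92827600-92827800: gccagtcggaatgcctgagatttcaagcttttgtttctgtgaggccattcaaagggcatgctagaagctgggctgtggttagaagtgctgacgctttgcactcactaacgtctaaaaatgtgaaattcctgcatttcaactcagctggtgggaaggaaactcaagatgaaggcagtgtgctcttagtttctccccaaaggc

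The peak of Adamtsl3 was the strongest of the families. Adamtsl3 encodes an ADAMTS-like matrix glycoprotein. The peak, at chr7:82533931-82534868, lay in intron 15 of the gene and had −log10 p-values of 19.94 in the first-listed and 20.99 in the second-listed replicate. Both replicates were 28 fragments high, with summits 9 bp apart. Its score was 1000, the cap of the scale, with a global IDR of 0.00178, and it ranked 28 of 13977 by the smaller of its −log10 p-values. It was the only one of the 91 that also passed a limit of 0.01.

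The other peaks of Adamtsl3 were far weaker. All 7 lay within the gene, and the smaller −log10 p-value of the other 6 ran from 3.99 to 6.92. For example, the peak at chr7:82422330-82423146 in intron 3 had 9.37 and 6.19, with a global IDR of 0.447. The strong peak thus stood alone in its gene, and neither of its replicates came near the values of its neighbours.

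The stronger of the reproducible Adamts5 peaks, at chr16:85950072-85950916, was distal intergenic, 48.2 kb upstream of the TSS, with −log10 p-values of 13.90 and 13.73, heights of 22 and 21 fragments and a global IDR of 0.0275. Its summit lay in sequence that the reference marks as repeat, visible as the run of ct pairs in the window, and the part of the repeat in the peak was not tested. Over the families, 15 summits (16.5%) lay in such sequence, beside 17.9% of all summits.

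The other, at chr16:86346963-86348472, was the peak farthest from Adamts5, 445 kb upstream, with values of 14.87 and 11.81, heights of 23 and 19 fragments and a global IDR of 0.0437. It held an AP-1 motif 61 bp from the summit. Adamts9 encodes another versican-cleaving enzyme. Its peak, at chr6:92826394-92828116, overlapped exon 2 of A730049H05Rik, a gene inside Adamts9, and had values of 18.89 and 11.81, heights of 27 and 19 fragments and a global IDR of 0.0269.

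Just outside the limit stood Timp3, which encodes a matrix-bound inhibitor of MMPs and of ADAMTS4 and ADAMTS5. Its stronger peak, at chr10:86290052-86290461, had −log10 p-values of 11.55 and 11.81, a score of 460 and a global IDR of 0.0776. It lay 9.91 kb upstream of the Timp3 TSS, within intron 6 of Syn3, the gene in which Timp3 sits. The other peak, in intron 1 of Timp3, was weak in both replicates, with 4.71 and 5.10.

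**Figure D2:**
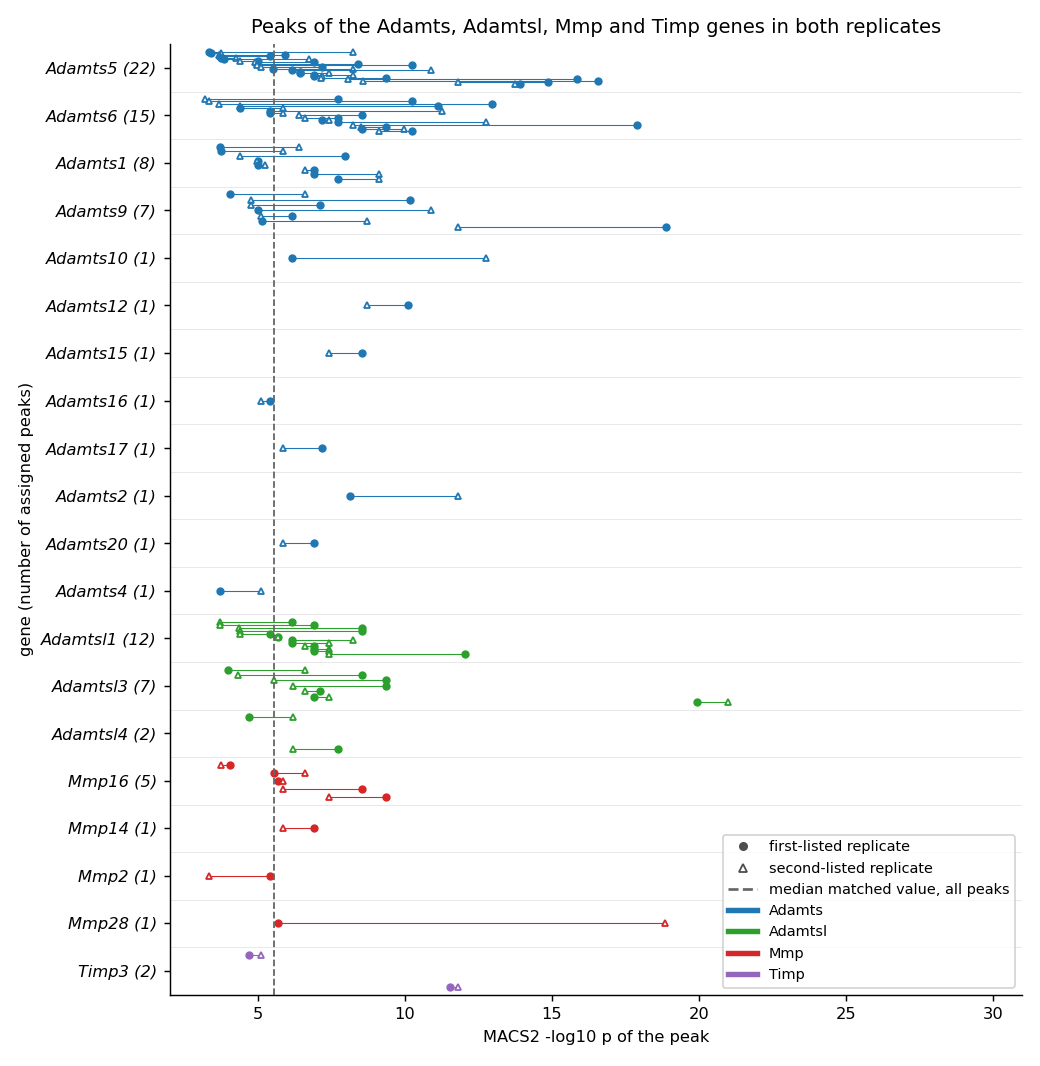
MACS2 −log10 p-value (x axis) of each of the 91 peaks in the first-listed replicate (filled circle) and the second-listed replicate (open triangle), joined by a line, for each gene (y axis, number of peaks in brackets). The dashed line is the median over all peaks of the smaller value, 5.53, and the Adamtsl3 peak with 19.94 and 20.99 stands apart from the rest.

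Over the families, the smaller −log10 p-value of a peak was 5.69 at the median, with a range of 3.19 to 19.94, beside a median of 5.53 over all peaks. This difference of medians is smaller than the gap between the replicates of the same 91 peaks, whose medians were 6.92 and 6.46. By family, the median was 5.42 for Adamts, 6.15 for Adamtsl and 5.69 for Mmp, and both Timp3 values are given above. A score of 48, below which no peak was listed, was held by 36 family peaks (39.6%), beside 41.4% of all peaks. A global IDR above 0.5 was given to 49 of them (53.8%), beside 59.1% of all. Most of the 91 peaks were thus weak, as were most peaks of the list.

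The replicates ranked the peaks quite differently. Across the 91 peaks, which share 2 libraries and are not replicates of each other, the Spearman correlation of the replicates was 0.227, and it was 0.263 across all peaks. The values of the replicates differed more than 2 times in 12 family peaks (13.2%), beside 12.9% of all peaks. The largest gap, 13.1, was at Mmp28, whose product is a secreted MMP also called epilysin. Its only peak, at chr11:83457398-83458708 in intron 1, had 5.69 in the first-listed and 18.83 in the second-listed replicate and a global IDR of 0.575.

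**Figure D3:**
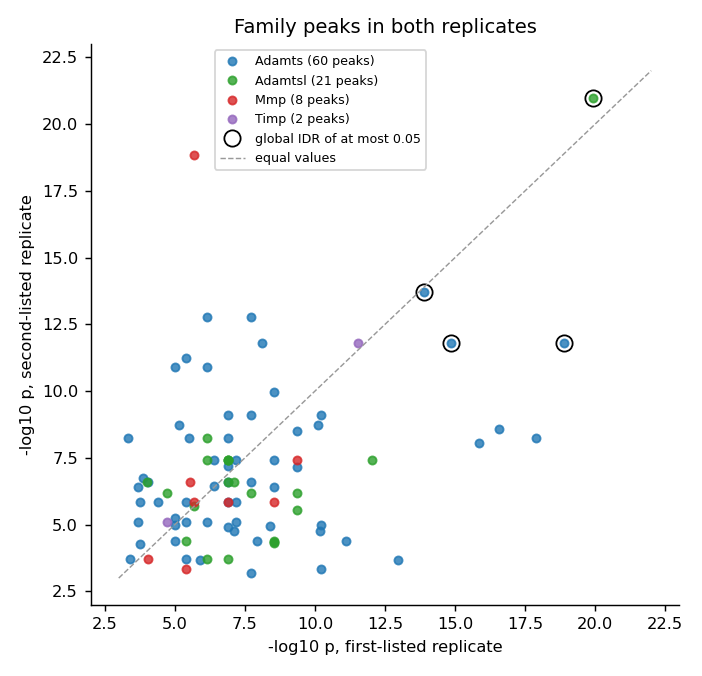
Each point is 1 of the 91 family peaks, with its −log10 p-value in the first-listed replicate on the x axis and in the second-listed replicate on the y axis. The 4 ringed peaks passed a global IDR limit of 0.05, and the red point high above the dashed line of equal values is the peak of Mmp28 with 5.69 and 18.83.

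Adamts5 and Adamts1 are neighbours on chromosome 16 and encode proteoglycan-cleaving enzymes with overlapping substrates. From chr16:85699280-86348472, an interval of 649 kb, all 30 peaks were assigned to these genes, 33.0% of all family peaks. No other protein-coding gene lies there. The density was 46.2 peaks per Mb, where chromosome 16 as a whole had 6.43 and the genome 5.31. Because the ends of the interval were set by its outermost peaks, that density is a description only. Over the 1452 kb between Adamts5 and the next protein-coding gene upstream, N6amt1, the list held 41 peaks, or 28.2 per Mb, of which 17 were assigned to Adamts5.

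Most of the Adamts5 peaks were remote. Of the 22, 17 lay upstream and 5 in the gene, and 13 lay more than 200 kb upstream. By the annotation 3 were at the promoter, 6 intronic and 13 distal intergenic, and 4 of the intronic ones lay in the long noncoding RNA genes 1700007H22Rik and Gm32357, not in Adamts5. They also clustered, since 12 of the 22 (54.5%) had another peak within 500 bp, beside 21.9% of all peaks.

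Beside the peaks with a low IDR, the strongest remote peaks of Adamts5 were strong mainly in the first-listed replicate. The peak 341 kb upstream, at chr16:86242415-86244512, had 16.56 and 8.58, and that 308 kb upstream, at chr16:86209656-86210755, had 15.85 and 8.06. In both, the first-listed value was near that of the reproducible peaks and the second-listed value was well below it. Their summits in the replicates were 589 and 266 bp apart, where the median over the families was 98 bp.

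In the gene itself the peaks were modest. The promoter peak nearest the TSS, at chr16:85900657-85901562, began 266 bp downstream of it, with 5.51 and 8.25. The other promoter peaks had 6.92 and 4.91, and 7.17 and 5.10. The strongest peak of the gene body, in intron 3, had 6.92 and 8.25. The lowest global IDR of the 5 was 0.372, that of the intron 3 peak.

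**Figure D4:**
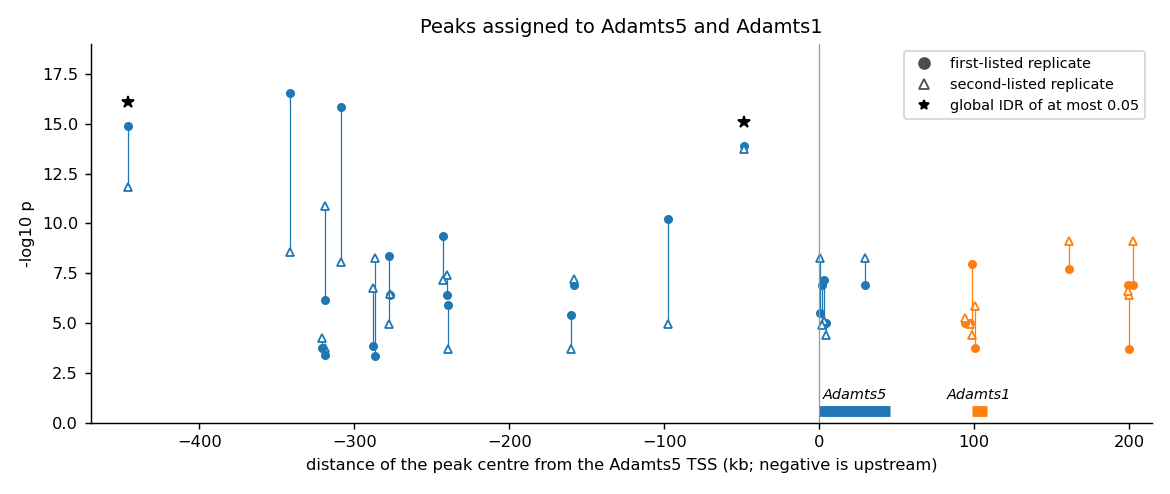
The 30 peaks of Adamts5 (blue) and Adamts1 (orange) by the distance of their centres from the Adamts5 TSS in kb (x axis, negative is upstream), with the −log10 p-value in each replicate (y axis, circle and triangle joined by a line). Stars mark the 2 peaks that passed a global IDR limit of 0.05, 48.2 and 445 kb upstream, and bars at the bottom show both genes.

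Adamts1 had 8 peaks, all within 100 kb of its TSS in the authors' annotation. By the reference starts, some of them lay just over 100 kb away. Of the 8, 3 were at the promoter, and 2 of those overlapped a TSS. The peak at chr16:85801192-85801718, at an alternative start, had 3.75 and 5.84, and that at chr16:85802621-85803520 had 7.95 and 4.39. In each of them 1 replicate was low, and both had the lowest score. By the annotation, the strongest peak of the gene lay 58.8 kb downstream of its TSS, at chr16:85740016-85740826, with 7.71 and 9.10. In the 53.1 kb between the genes lay 2 peaks of the locus.

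The genes for proteoglycan-cleaving enzymes were listed with earlier results of these data known. Of these 7 genes, 6 had a peak (85.7%), beside 19.9% of all protein-coding genes, and Adamts8 had none. By length, the share of all protein-coding genes was 55.3% at 100 kb or more and 15.3% below. The 6 bound genes held 40 peaks, 30 of them those of Adamts1 and Adamts5. Adamts4, Adamts15 and Adamts20 had 1 peak each. Adamts4, the other major aggrecanase, had its peak 473 bp upstream of its TSS, with 3.70 and 5.10. The peak of Adamts15 lay downstream of the gene, 23.8 kb from its TSS, with 8.52 and 7.42. That of Adamts20 lay 157 kb from its TSS, with 6.92 and 5.84.

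Besides the reproducible peak, Adamts9 had 6 peaks with smaller values from 4.04 to 5.14. Of its 7, 3 lay more than 100 kb upstream, as far as 342 kb, 2 of them in 9530026P05Rik. The promoter peak lay inside the gene, 2.80 kb upstream of an alternative start within it, and had 4.04 and 6.61.

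Adamts6 and Adamts10 encode proteases that act on fibrillin microfibrils and the matrix around them. Adamts6 had 15 peaks, of which 3 crowded around its TSS. The peak over the TSS, at chr13:104287520-104287996, had 17.88 in the first-listed and 8.25 in the second-listed replicate, with a global IDR of 0.195. The next, at chr13:104288040-104288645, had 8.52 and 9.98, and that upstream, at chr13:104286128-104287434, had 8.52 and 6.39. The TSS peak was the highest promoter value of the families in the first-listed replicate, and its second-listed value lay between those of its neighbours.

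Farther into the gene and beyond its end, 10 of the 15 Adamts6 peaks lay more than 100 kb from the TSS. The strongest by the smaller value was a distal intergenic peak 227 kb downstream of the TSS, at chr13:104533913-104534528, with 10.23 and 9.10 and a global IDR of 0.191. The peak at chr13:104397649-104398297, annotated to the 3′ untranslated region (UTR) of a transcript, had 9.37 and 8.52. In contrast, the intronic peak at chr13:104447666-104448686 had 12.95 and 3.68, a value near the lowest of the list in 1 replicate. Of the 15 peaks, 4 had the lowest score.

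The only peak of Adamts10, at chr17:33523894-33524203, ended 1 base upstream of its TSS and had 6.15 and 12.76. The summits of the replicates lay 11 bp apart, at heights of 13 and 20 fragments. The peak of Adamtsl4, another fibrillin-associated gene, overlapped its TSS at chr3:95687881-95688494 with 7.71 and 6.20, and was the strongest by the smaller value of the 3 TSS-overlapping peaks outside Adamts6. The summit windows of both peaks are printed as examples of bound promoters, and neither holds an AP-1 or a TEAD motif:
Adamts10 chr17:33523909-33524109: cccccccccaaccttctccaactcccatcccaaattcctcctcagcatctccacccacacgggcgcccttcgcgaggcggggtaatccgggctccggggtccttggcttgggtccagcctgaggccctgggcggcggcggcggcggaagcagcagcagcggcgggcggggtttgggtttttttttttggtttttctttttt
Adamtsl4 chr3:95688054-95688254: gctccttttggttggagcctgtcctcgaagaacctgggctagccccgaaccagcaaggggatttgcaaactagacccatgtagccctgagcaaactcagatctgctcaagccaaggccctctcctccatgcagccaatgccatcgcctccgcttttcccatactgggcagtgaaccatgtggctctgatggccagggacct

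The procollagen-processing and COMP-cleaving enzymes had a peak each at Adamts2 and Adamts12. Adamts2, which trims the amino-terminal propeptide of fibrillar procollagens, had 8.12 and 11.81 in intron 2, and its relatives Adamts3 and Adamts14 had no peak. Adamts12 had a promoter peak at chr15:11064940-11066074, starting 122 bp downstream of the TSS, with 10.11 and 8.72 and a global IDR of 0.219. It was the strongest promoter peak of the families by the smaller value. Adamts7, which shares its substrate COMP, had none.

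Of the other ADAMTS genes, Adamts16 had an intronic peak with 5.42 and 5.10, and Adamts17 a peak in an intron of the neighbouring Cers3, 26.4 kb upstream of its TSS, with 7.17 and 5.84. Both were near the median of the list. Adamts13, the enzyme that cuts von Willebrand factor, and Adamts18 and Adamts19 had no peak.

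Adamtsl1, the longest member at 914 kb, had 12 peaks, all intronic in the authors' annotation. The reference places all 12 within the span of the gene, but its basic set of transcripts lacks the long one that the intron calls rest on, and by those transcripts 3 were intronic, 8 intergenic and 1 at a promoter. Their smaller values ran from 3.71 to 7.42. The strongest in the first-listed replicate, at chr4:85749547-85750134, had 12.03 and 7.42. None lay within 500 bp of another peak, unlike those of Adamts5. Adamtsl2 and Adamtsl5 had no peak.

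Among the MMPs, peaks were few, and 0 of 8 passed the IDR limit of 0.05, too few peaks to set against the 3.33% of all. Mmp14 encodes the membrane-bound activator of the gelatinase encoded by Mmp2. Its only peak, at chr14:54431702-54432111, began 38 bp downstream of its TSS, with 6.92 and 5.84 and a global IDR of 0.479. That of Mmp2 lay 25.7 kb upstream, with 5.42 and 3.33, the lowest smaller value of any gene with 1 peak.

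Mmp16, another membrane-type MMP, had its 5 peaks 619 to 776 kb upstream of its TSS and none within the gene. The strongest, at chr4:17076191-17077075, had 9.37 and 7.42 and a global IDR of 0.316. The stretch from Mmp16 to the next protein-coding gene, Ripk2, is 1689 kb long and held 10 peaks, or 5.92 per Mb, near the 5.31 of the genome. The peaks were assigned to Mmp16 as the nearest start site, and whether they act on it was not tested.

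The genes for collagenases, stromelysins and matrilysins had no peak. All are under 100 kb, and they are too few to set against the 15.3% of such protein-coding genes with a peak. On chromosome 9, 10 Mmp genes lie side by side from chr9:7272514-7699585, among them Mmp3, Mmp8, Mmp10, Mmp12, Mmp13 and Mmp20. This interval of 427 kb held 0 peaks, and the nearest peak of the list was 137 kb away from it. At the density of chromosome 9, 5.22 peaks per Mb, an interval of this length would hold 2.23 peaks. Mmp9, the other gelatinase, and Mmp15, Mmp17, Mmp19, Mmp21, Mmp23, Mmp24 and Mmp25 had no peak either. Of the inhibitors, Timp1, Timp2 and Timp4 had none.

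The place of the family peaks differed from that of all peaks most in distance. They lay a median of 90.3 kb from the TSS of their gene, beside 22.7 kb for all peaks, and 38 (41.8%, 32.2% to 52.0%) lay more than 100 kb away, beside 19.3% of all. Adamts5 gave 15 of the 38, and without it the share was 33.3% and the median 58.8 kb. Another peak lay within 1 kb of 34 family peaks (37.4%, 28.1% to 47.6%), beside 25.9% of all, and without Adamts5 the share was 29.0%. Within 500 bp it was 27.5% (19.4% to 37.4%), beside 21.9%, and without Adamts5 it was 18.8%, below that of all peaks. Promoters held 15 peaks (16.5%, 10.2% to 25.4%), beside 21.3% of all, and introns 39 (42.9%, 33.2% to 53.1%), beside 35.9% of all. With the reference gene models the order for introns turned, to 33.0% of family peaks beside 36.0% of all. Distal intergenic sequence held 32 (35.2%), beside 37.2%. The background shares for promoters, introns and distal intergenic sequence all fell within the family intervals.

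Distance also bears on which gene a peak belongs to. Of the 91 peaks, 46 lay in their own gene and 45 outside it, 10 of these in another gene only. For 85, the nearest start site of a protein-coding gene was that of the assigned gene, and for 6 another was nearer. Among the 6 were 2 of the 4 reproducible peaks, that of Adamtsl3, nearer to the start of Saxo2, and that of Adamts9, nearer to A730049H05Rik. The starts are those of the reference's basic set of transcripts, whereas the authors' annotation measured the Adamtsl3 peak from an alternative start 76.9 kb away. Conversely, 3 peaks inside Adamts9, Adamts12 and Adamts16 were assigned to other genes and are not counted here.

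**Figure D5:**
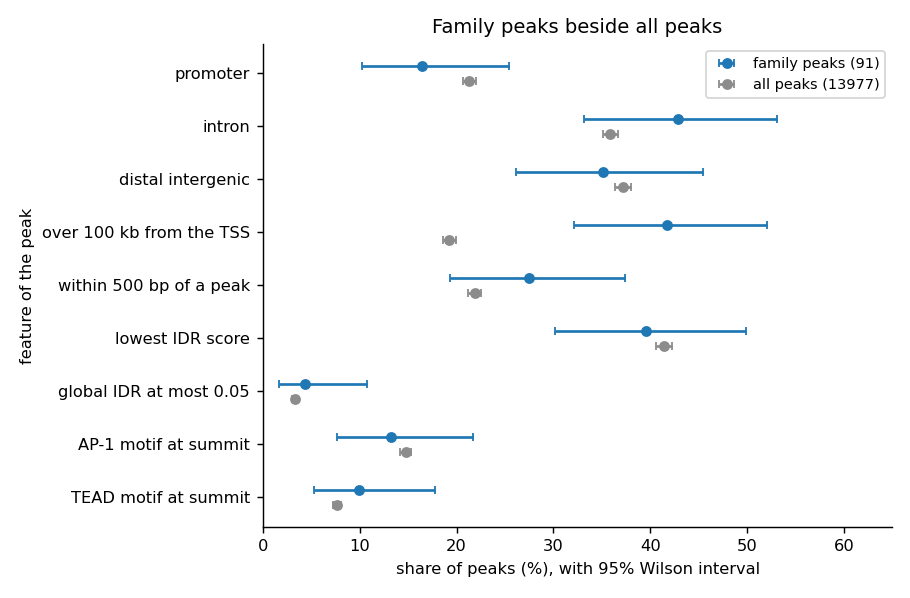
Share of peaks in percent (x axis) with each feature (y axis), for the 91 family peaks (blue) and all 13977 peaks (grey), with 95% Wilson intervals that cover counting error only. The widest separation is in peaks over 100 kb from the TSS, 41.8% beside 19.3%, and the intervals of the other 8 features plotted take in the value of all peaks.

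The study names AP-1 and TEAD motifs among the sequences found in its peaks. AP-1 is the dimer of Fos and Jun proteins, and TEAD factors are the DNA-binding partners of YAP. AP-1 was searched as TGACTCA or TGAGTCA, and TEAD as AGGAATGC, AGGAATGT, GGGAATGC or GGGAATGT, on both strands and with the motif centre within 100 bp of the summit. The motifs do not overlap in letters. AP-1 was found at 12 of 91 family summits (13.2%, 7.71% to 21.7%), beside 14.7% of all summits, and TEAD at 9 (9.89%, 5.29% to 17.7%), beside 7.63% of all. No family summit held both. In flanking windows 1000 bp from the summit, equal in size when both sides are added, AP-1 was found for 5 peaks (5.49%), beside 4.07% of all, and TEAD for 4 (4.40%), beside 3.33%. None of the 8 Mmp and 2 Timp peaks held either motif, too few peaks to set against the 21.2% of all.

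The motifs of the genes with the most peaks were counted apart. AP-1 was found at 4 of the 22 Adamts5 summits and at 2 of the 15 Adamts6 summits, and TEAD at 1 and at 6. These counts are small and were not tested. The Adamts5 peaks with an AP-1 motif had 4.98 to 11.81 in the second-listed replicate. All 4 AP-1 motifs of Adamts5 lay at peaks that were higher than 10 in the first-listed replicate and 96.9 to 445 kb upstream. The 3 that are not printed above follow, each as 61 bases of the plus strand centred on the motif in capitals, 51 to 65 bp from the summit:
Adamts5 chr16:85999159-85999219: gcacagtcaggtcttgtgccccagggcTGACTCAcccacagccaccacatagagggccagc
Adamts5 chr16:86210466-86210526: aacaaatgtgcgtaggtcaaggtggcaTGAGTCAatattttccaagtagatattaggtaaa
Adamts5 chr16:86243307-86243367: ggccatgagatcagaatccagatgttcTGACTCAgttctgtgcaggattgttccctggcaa

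The closest motifs to a summit were in Adamts6. In its intron 20, an AP-1 motif was centred 7 bp from the summit of a peak with 10.23 and 3.33, and in intron 11 a TEAD motif 21 bp from the summit of a peak with 7.71 and 6.61. The TEAD motif of the strongest distal Adamts6 peak lay 51 bp from its summit, on the minus strand, as did that of the TSS-overlapping Adamts1 peak, 57 bp from its summit. They are printed in the same way:
Adamts6 AP-1 chr13:104460707-104460767: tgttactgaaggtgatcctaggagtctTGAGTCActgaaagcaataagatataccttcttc
Adamts6 TEAD chr13:104374767-104374827: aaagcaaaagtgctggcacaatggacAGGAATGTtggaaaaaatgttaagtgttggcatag
Adamts6 TEAD chr13:104533945-104534005: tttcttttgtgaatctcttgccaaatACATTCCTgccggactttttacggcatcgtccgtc
Adamts1 TEAD chr16:85801283-85801343: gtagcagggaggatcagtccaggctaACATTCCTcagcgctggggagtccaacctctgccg

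Other genes of matrix proteolysis, from the plasminogen system, the membrane-bound ADAM proteases and the proteoglycan substrates, with Furin, Reck, Bsg, Lrp1, Papln and Ctsk, were set beside the families. Of 23 such genes, 9 had a peak (39.1%), beside 19.9% of all protein-coding genes. They held 30 peaks, of which 0 passed the IDR limit of 0.05, beside 3.33% of all peaks. Vcan, which encodes versican, had 8, of which 3 were at its promoter. Its strongest peak, at chr13:89827459-89828860, had 10.23 and 10.89 and a score of 354. Plau, the gene for urokinase, had 3, the strongest in intergenic sequence 44227 bp from its TSS, with 10.42 and 12.19. The others were Adam10 and Adam12 with 5 each, Serpine2 with 3, Adam9 and Adam19 with 2 each, and Plat and Plaur with 1 each. The aggrecan gene Acan and the 6 genes outside those groups, among them the convertase gene Furin, had no peak.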

How the data were processed

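The samples were 2 PRDM6 ChIP and 2 Input libraries, grouped by title. The authors aligned paired reads to mm10 with BWA, called peaks in each immunoprecipitation against its own input with MACS2, matched both peak sets by IDR and annotated the matched peaks. The annotation tool is not given in the sources used here. The deposited score was the scaled IDR, with limits of 0.05 and 0.01 on the global IDR at 540 and 830. For each replicate the authors gave MACS2's −log10 p, and the value of the matched peak was the smaller of both in all 13977 rows. No IDR limit had been applied. The list named the replicates by order alone, and which library each was is not known. The Input entered only through the peak calls. Read totals are not given in the list, so depth is known only from the heights of peaks whose p-value falls on the tail of a Poisson distribution (means of 2.61 and 2.39 fragments, tolerance 0.0002). These were 57 family peaks in the first-listed replicate and 56 in the second-listed, with medians of 14 fragments in both.

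Members were found by symbol: Adamts, Adamtsl, Mmp or Timp and a number. Gene models were the basic set of GENCODE M21 and sequence came from GRCm38.p6. A promoter was within 3 kb of a TSS in the authors' annotation. Every bound member was named. Full values were given for peaks that passed a global IDR limit of 0.05, the strongest peak of each family, peaks over a TSS and genes with the most peaks. The members, the gene lists and this rule were chosen with earlier results of these data known. No test was made, since the list holds 1 set of matched peaks and no comparison of groups, so shares are set beside those of all peaks, with Wilson intervals at 95%. The motif search and the recovery of heights were tested on simulated data. Alternatives were IDR limits, distance limits, the peaks above the median of the list, gene bodies with 10 kb around them, the reference gene models, other motif windows, each replicate alone, merged peaks and the omission of Adamts5. Computations used Python 3.11.15, pandas 2.3.3, NumPy 2.4.6, SciPy 1.17.1, pysam 0.24.0, samtools 1.23.1 and matplotlib 3.10.9.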

Additional observations from a re-analysis of the deposited data

How the results depend on the processing

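Of 43 alternatives, 24 kept their value and 19 moved it, where kept means within 1.5 times for a count or distance, within the 95% Wilson interval for a share, and within 1 SD between the replicates' medians (0.325) for a −log10 p. The count of 91 peaks fell to 4 (3 genes) at a global IDR of at most 0.05, to 1 (1 gene) at 0.01, to 53 within 100 kb of the TSS and to 47 among the peaks above the median of the list. The 4 that passed an IDR limit of 0.05 became 1 at 0.01, and 1 when the limit of 0.05 was set on the local IDR. The median −log10 p was 6.46 to 6.92 in each replicate alone, because the matched value is the smaller of both, and 7.42 over the highest peak of each gene. The promoter share was 0% and the intron share 25% among the 4 peaks with a low IDR. The intron share was 33.0% with the reference gene models, which lack the long Adamtsl1 transcript, and thus below the 36.0% of all peaks. With promoters of 1 kb it was 35.2% beside 40.2%. AP-1 was found at 2.20% of family summits within 50 bp (8.03% of all) and at 29.7% within 250 bp (30.9% of all), and at 7.69% to 12.1% with the summits of each replicate alone (12.6% to 13.6% of all). TEAD was found at 1.10% within 50 bp (4.39% of all). Merging peaks within 1 kb, chosen after seeing the data, left 72 family regions of 12001. Omitting Adamts5, also chosen then, moved the median distance from the TSS from 90.3 to 58.8 kb and left 6 other values within these limits. Not counted among the 43, the omission took the share with another peak within 500 bp from 27.5% to 18.8%. That is outside its interval of 19.4% to 37.4%. The share within 1 kb went from 37.4% to 29.0%, inside its interval of 28.1% to 47.6%. With heights near 14 fragments, weak peaks rest on few fragments. No paired analysis was possible because the list holds no Input value and does not say which replicate number each column is.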

Other observations

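Few motifs at the family summits were centred within 50 bp of them. Of the 12 AP-1 motifs, 2 were centred within 50 bp of the summit, both in introns, 1 of Adamts6 and 1 of Adamtsl3, and of the 9 TEAD motifs 1 was, in intron 11 of Adamts6. The AP-1 share was 2.20% (95% Wilson interval 0.605% to 7.66%), beside 8.03% of all summits, just outside that interval. For TEAD the share was 1.10% (0.194% to 5.96%), beside 4.39% of all, inside the interval. The distance of 50 bp was 1 of 3 tried, and neither share was tested.

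Inside family genes, 3 further peaks carried another symbol. The peak at chr13:70732722-70733565 in Adamts16 was assigned to Ice1, that at chr15:11318761-11319435 in Adamts12 to Tars, and that at chr6:92941344-92941761 in Adamts9 to 9530026P05Rik. Their −log10 p-values were 9.57 and 3.71, 6.89 and 4.98, and 4.71 and 5.67. Counting peaks by the gene body and 10 kb around it, in place of the assigned symbol, gave 63 peaks at 17 family genes.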
